A study of Homo sapiens with 6 samples.

Results

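The genes described here are 36 members of metalloprotease families and their inhibitors. They comprise 15 matrix metalloproteases (MMPs), 8 ADAM genes, 9 ADAMTS proteases, the 3 tissue inhibitors TIMP1, TIMP2 and TIMP3, and the membrane-anchored inhibitor RECK. They were chosen by symbol from the 38637 genes of the deposited expression table. MMP24 was included because it had already been called higher in these libraries, so the comparison below is the one that chose the set. Fold changes and calls of the members are therefore given as a description, and none is a test of the set.

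MMPs are zinc endopeptidases made as inactive proenzymes, which furin-like convertases or plasmin activate, and TIMPs block the active site of the mature enzyme. ADAM proteases sit in the membrane and release the outer part of other membrane proteins, and ADAMTS proteases are secreted and cut proteoglycans, procollagens or von Willebrand factor. In the liver these enzymes are known for remodelling the matrix in fibrosis and for the invasion of hepatocellular carcinoma (HCC) cells.

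PolyA-Seq was done on HCCLM3-SR, a sorafenib-resistant line of human HCC cells, in which all libraries came from cells kept in 5 µM sorafenib, a multikinase inhibitor. The si_circRNA group (n = 3, knockdown) received siRNA against cDCBLD2, a circular RNA of the DCBLD2 gene, and the si_CTRL group (n = 3, control) received control siRNA, both for 3 days. The libraries represent 1 cell line, and the labels do not say whether the replicates were separate cultures, so p-values measure only the spread between these libraries. Values are TPM, reads per gene divided by gene length and scaled to the same total in each library.

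Between 17492673 and 23064302 reads per library could be recovered from the TPM values. Replicate 1 differed from replicates 2 and 3 in either group, and libraries of equal number deviated together. DCBLD2 was at 58.1, 25.9 and 31.6 TPM after knockdown and at 71.5, 48.5 and 50.7 TPM in controls (replicates in the order 1, 2, 3 here and throughout). The groups overlapped, each knockdown library was below the control of its own number, and the log2 fold change of -0.61 had a limma adjusted p of 0.0139 with the replicate number as a block and 0.253 without it. With the GC trend of every library taken out it was -0.27 (limma adjusted p = 0.0525 with the block). These gene values do not part cDCBLD2 from the linear DCBLD2 mRNA. PolyA-Seq is aimed at RNA with a poly(A) tail, which a closed circle lacks, so the values do not measure the knockdown of cDCBLD2. In the paper, DCBLD2 mRNA and protein did not change consistently across its resistant lines after cDCBLD2 knockdown. Of 9 liver cancer cell markers, 5 had a mean of at least 1 TPM. The keratin KRT8 was at 3927 TPM after knockdown and 3140 TPM in controls (limma adjusted p = 0.00669 with the block and 0.126 without), whereas albumin (ALB) was at 0.607 and 1.11 TPM, with overlapping groups on 3 to 29 reads, and transferrin (TF) was under 0.1 TPM in every library. KRT18, AFP, SERPINA1 and APOA1 had higher means after knockdown with overlapping groups, and of these KRT18 was called higher with the block (limma adjusted p = 0.00954, and 0.197 without). The markers differed in direction, since APOB was at 1.64 and 3.44 TPM and was called lower with the block (limma adjusted p = 0.0126, and 0.138 without), while TTR was higher without overlap, on 7 to 9 reads after knockdown and 1 read in each control. Of 5 fibroblast markers, 3 had a mean of at least 1 TPM, and their summed level was 32.5 to 74.3 TPM after knockdown and 30.3 to 43.9 TPM in controls. Endothelial markers summed to 3.68 to 5.73 TPM over all libraries, and the 3 leukocyte markers summed to 90.4 to 126 TPM, nearly all of it CD68, with PTPRC under 1 TPM and CD3E at 0 in every library.

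The promoter sequences of 4 members are shown first. MMP24 had the largest log2 fold change among the 23 members with a mean of at least 1 TPM. MMP7 and MMP10 were added because their promoters and that of MMP24 are of unlike build, and MMP14 because it is the most abundant MMP. For MMP7 and MMP10, of the MMP cluster on chromosome 11, and for MMP14 and MMP24, the bases from 140 to 21 before the RefSeq start (GRCh38.p14) are printed 5′ to 3′ on the gene's own strand. Capitals mark 3 motifs, each searched on both strands. The first is the AP-1 element TGANTCA, named for the transcription factor dimer of the FOS and JUN families. The next is the TATA box, spelled TATAAA, which places the start of transcription in many inducible genes. The last is the GC box, spelled GGGCGG, which reads in reverse complement where it lies on the other strand and is common in the promoters of widely expressed genes. The stretches lie at chr11:102530768-102530887 on the minus strand for MMP7, chr11:102780649-102780768 on the minus strand for MMP10, chr14:22836445-22836564 on the plus strand for MMP14 and chr20:35226550-35226669 on the plus strand for MMP24.
MMP7: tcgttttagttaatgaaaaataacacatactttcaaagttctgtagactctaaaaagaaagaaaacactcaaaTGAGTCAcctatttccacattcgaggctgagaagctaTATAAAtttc
MMP10: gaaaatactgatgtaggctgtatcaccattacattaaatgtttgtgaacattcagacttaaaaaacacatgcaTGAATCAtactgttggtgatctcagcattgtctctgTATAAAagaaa
MMP14: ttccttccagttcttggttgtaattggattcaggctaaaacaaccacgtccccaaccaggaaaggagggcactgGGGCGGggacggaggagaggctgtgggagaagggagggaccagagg
MMP24: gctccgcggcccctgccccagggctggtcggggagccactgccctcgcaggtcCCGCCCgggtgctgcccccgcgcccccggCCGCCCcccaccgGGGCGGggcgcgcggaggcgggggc

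RefSeq windows from 250 bases before to 50 bases after the start were held for 20 of the 36 members. An AP-1 element was found in 2 of these 20 members, MMP7 and MMP10, and in 7.7% of all 35116 windows. In both it began 67 bases before the start, and a TATA box followed, 30 bases before the start in MMP7 and 31 bases before it in MMP10. The TATA box was found in 1 further member, ADAMTS10, and in 11.5% of all windows. Both motifs stood together in 1.3% of all windows. A GC box was found in 16 of the 20 members and in 45% of all windows. The window of MMP24 was 80.0% G or C with 3 GC boxes, and those of MMP7 and MMP10 were 35.7% and 36.3% G or C with none. A match of letters is a description and not a binding site.

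Of the 36 members, 23 had a mean of at least 1 TPM over the 6 libraries and entered the fit across 13980 genes. The other 13 had means from 0.00241 to 0.782 TPM. MMP19 and ADAM8 entered the fit with a mean under 1 TPM after knockdown and over it in controls. The levels were uneven: 6 members had a mean over 50 TPM, namely ADAM15, TIMP2, MMP14, ADAM9, TIMP1 and MMP15. ADAM15 alone made up 39.5% of the summed TPM of the members, and TIMP2 made up 20.1%. In bulk RNA, a lower level cannot be told apart as fewer cells that make the transcript or less RNA per cell.

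**Figure D1:**
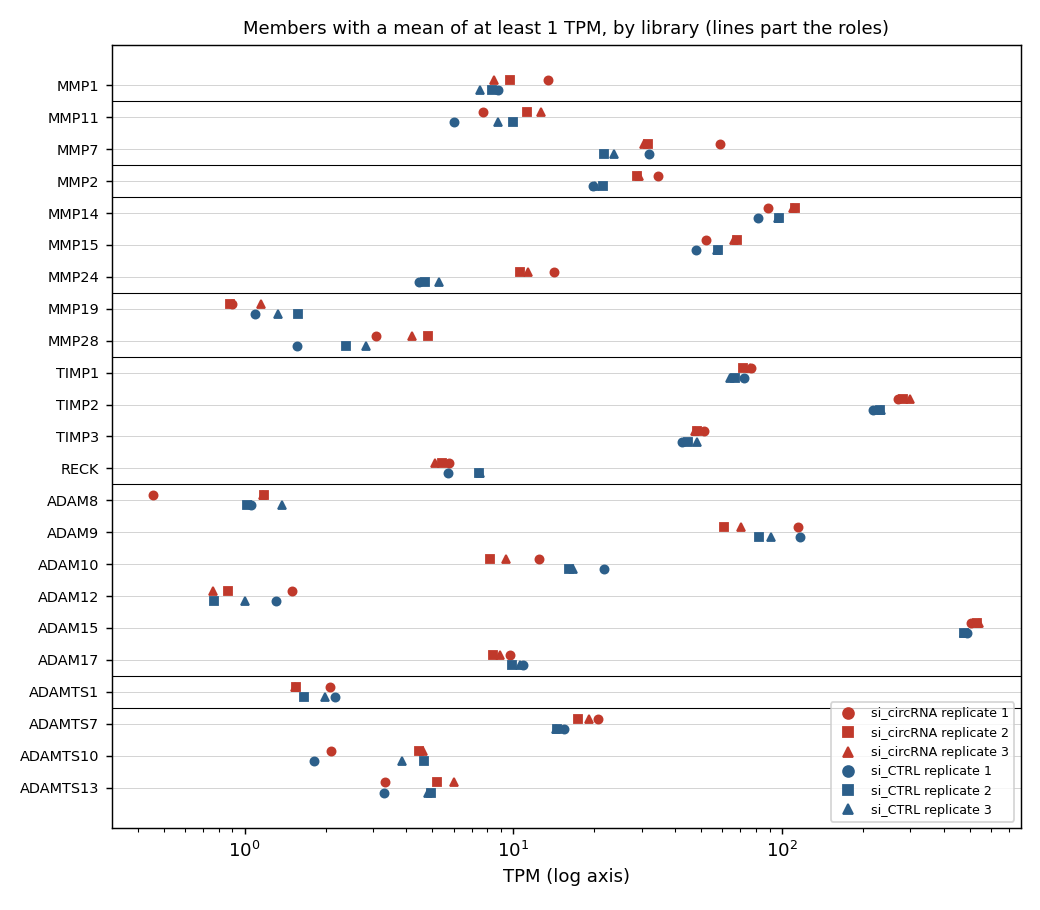
TPM (log axis) of the 23 members with a mean of at least 1 TPM in each library, with knockdown (si_circRNA) in red, control (si_CTRL) in blue, a symbol for each replicate number and lines between the roles. The knockdown libraries of MMP24 (10.5 to 14.1 TPM) lie right of its controls, those of ADAM10 (8.16 to 12.4 TPM) lie left of its controls, and replicate 1 sits apart in both groups for MMP7, ADAM9 and MMP11.

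Across the 23 members fitted, 16 had a positive and 7 a negative log2 fold change of TPM + 1 after knockdown, on a scale that understates the change of low genes. The median was 0.128, and it was -0.084 over all 13980 genes. Limma without a replicate block called 1 member higher (adjusted p under 0.05), MMP24, beside 0.250% of all genes, and 0 members lower beside 0.629%. At an unadjusted p under 0.05 the same fit had 5 members higher and 1 lower, beside 6.78% and 19.4% of all genes. Limma-voom on the recovered reads called 3 members higher (MMP2, MMP24, TIMP2) and 0 lower, beside 1.29% and 1.72% of 15018 genes. MMP24 also passed an absolute log2 fold change over 1, as did 0.0501% of all genes in the higher direction. With the replicate number as a block, limma called 9 members higher, or 39.1% of the 23, beside 9.94% of all genes, and 1 member lower, ADAM10, beside 25.0% of all genes. The 9 were MMP2, MMP7, MMP11, MMP14, MMP15, MMP24, MMP28, TIMP2 and ADAMTS7. Since this contrast chose the set, nothing is read from these counts. Every knockdown library lay above every control library for 6 members, where 9.58% of all genes did so, and below every control library for 2 members, where 22.3% of all genes did so.

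MMP24, or MT5-MMP, is a membrane-type MMP best known from the nervous system, where it cuts N-cadherin. Its gene lies at chr20:35226654-35277000 on the plus strand (GENCODE 29, GRCh38). It was at 14.1, 10.5 and 11.4 TPM after knockdown and at 4.45, 4.69 and 5.30 TPM in controls, from 138 to 457 reads per library. Every knockdown library lay above the highest control library, and the 3 pairs of equal number differed by 1.47, 1.02 and 0.97 on the log2 scale. The means of 12.0 ± 1.87 TPM and 4.81 ± 0.437 TPM (SD, n = 3, knockdown first) differed 2.50-fold. The log2 fold change was 1.16 (SE 0.14), 1.03 once the GC trend of every library was taken out (the GC offset below), and 1.39 with limma-voom on the reads. It lay between 1.04 and 1.24 when 1 library was left out, but of these fits only the one without knockdown replicate 1 called it. In the other 5 such fits no gene of the whole table was called, while 2161 to 2803 genes had an unadjusted p under 0.05. Without the block MMP24 was also not called with the GC offset (limma adjusted p = 0.0547) or without a filter on low values (0.0673).

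The exons of MMP24 share 799 bases with MMP24OS on the opposite strand, and the strand setting of the counting is not given in the sources used here. MMP24OS was at 40.5, 42.8 and 48.8 TPM after knockdown and at 31.3, 35.5 and 34.7 TPM in controls. It was thus higher in all 3 knockdown libraries too, by a log2 fold change of 0.37 (SE 0.10, limma adjusted p = 0.0907 without the block and 0.0107 with it). The ratio of MMP24 to MMP24OS was 0.276 ± 0.0633 (SD, n = 3) after knockdown and 0.142 ± 0.0103 (SD, n = 3) in controls, and the groups did not overlap. The readthrough gene MMP24-AS1-EDEM2 was at 52.0, 51.7 and 52.5 TPM after knockdown and at 42.3, 51.0 and 45.9 TPM in controls. How many reads of MMP24 came from the shared bases was not tested.

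MMP14 and MMP15, also membrane-type MMPs, were more abundant than MMP24 and differed less. MMP14, or MT1-MMP, cuts collagen at the cell surface and, bound to TIMP2, activates proMMP2. MMP14 was at 88.6, 111 and 109 TPM after knockdown and at 81.1, 97.1 and 96.5 TPM in controls. MMP15, or MT2-MMP, was at 52.2, 67.9 and 66.5 TPM after knockdown and at 47.7, 57.6 and 57.2 TPM in controls. In both genes replicate 1 was the lowest library of its group, the groups overlapped, and each knockdown library was above the control of its own number. The log2 fold change was 0.17 (SE 0.12) for MMP14 and 0.19 (SE 0.13) for MMP15, and 0.06 and 0.04 after removal of the GC trend. These values were 0.27 and 0.31 without knockdown replicate 1, 0.11 and 0.12 without knockdown replicate 2, and 0.08 and 0.10 without control replicate 1. MMP17 and MMP16 were under 1 TPM in every library.

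Among gelatinases, which cut denatured collagen and the type IV collagen of basement membranes, MMP2 carried nearly all of the signal. It was at 34.4, 28.8 and 29.3 TPM after knockdown and at 19.8, 21.5 and 20.2 TPM in controls, so that the groups did not overlap. The mean was 30.8 ± 3.12 TPM (SD, n = 3) against 20.5 ± 0.923 TPM (SD, n = 3), and the log2 fold change was 0.56 (SE 0.10), or 0.49 after removal of the GC trend. MMP9 had 2 reads in knockdown replicate 1, 1 read in control replicate 2 and 0 in the other libraries. A pair of fibroblast collagens were higher beside MMP2: COL1A1 was at 11.2, 3.61 and 3.64 TPM after knockdown and at 3.35, 1.13 and 2.15 TPM in controls, and COL3A1 was at 3.36, 1.78 and 1.96 TPM and at 0.783, 0.476 and 0.546 TPM. Both were called higher with the block (limma adjusted p = 0.0132 for COL1A1 and 0.00787 for COL3A1) and not without it (0.196 and 0.0635), and COL3A1 passed the minimum of 1 TPM only through the knockdown group. Of the other fibroblast markers, LUM overlapped between the groups and DCN and PDGFRA were under 1 TPM in every library. The log2 fold change of LUM was 0.18, and 0.63 after removal of the GC trend. With that trend removed, LUM was called higher with the block (limma adjusted p = 0.00786) and not without it (0.0787). The part of these markers in the MMP2 level was not tested.

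Matrilysin and the stromelysins MMP3 and MMP10 act on a wide range of matrix proteins. MMP7, the matrilysin of epithelial cells, was at 59.0, 31.7 and 30.7 TPM after knockdown and at 31.9, 21.8 and 23.7 TPM in controls. Replicate 1 was the highest library of each group, and control replicate 1 reached the level of knockdown replicates 2 and 3. Within pairs of equal number, MMP7 was higher by 0.87, 0.52 and 0.36 on the log2 scale. The log2 fold change was 0.58 (SE 0.27), 0.87 after removal of the GC trend, and 0.28 without knockdown replicate 1, which moved it by over 1.5 times. MMP11, stromelysin-3, which is activated inside the cell by furin, was at 7.72, 11.3 and 12.7 TPM after knockdown and at 6.03, 9.97 and 8.78 TPM in controls. Its replicate 1 was the lowest of each group, opposite to MMP7, and the log2 fold change was 0.32 (SE 0.23), or 0.19 after removal of the GC trend. It was 0.51 without knockdown replicate 1, 0.18 without knockdown replicate 3 and 0.13 without control replicate 1. MMP11 shares 218 exonic bases with CHCHD10 on the opposite strand, which was at 105 to 143 TPM.

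MMP10, stromelysin-2, was under the minimum for the fit but differed in the same direction as MMP7 of the same cluster. It was at 1.39, 0.845 and 1.04 TPM after knockdown, from 17, 14 and 16 reads, and at 0.506, 0.283 and 0.426 TPM in controls, from 6, 4 and 6 reads. The groups did not overlap, and the mean was 2.70-fold higher after knockdown. On the recovered reads its log2 fold change was 1.44 (SE 0.35), but it passed the minimum of 10 reads in 3 libraries only through the knockdown group, where it is high. MMP3, stromelysin-1, had 0, 2 and 0 reads after knockdown and 3, 1 and 5 reads in controls, which is too few for a comparison.

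The interstitial collagenases cut fibrillar collagen. MMP1 was at 13.5, 9.75 and 8.46 TPM after knockdown and at 8.80, 8.34 and 7.54 TPM in controls. The knockdown library was the higher one of each pair, but the groups overlapped, and the log2 fold change was 0.30 (SE 0.17), or 0.59 after removal of the GC trend. Without knockdown replicate 1 it was 0.13. MMP13 had 7, 4 and 3 reads after knockdown and 1, 0 and 2 reads in controls. MMP7, MMP10, MMP1, MMP3 and MMP13 lie in this order between positions 102520508 and 102955734 of chromosome 11, and their summed TPM was 74.2, 42.5 and 40.4 after knockdown and 41.5, 30.5 and 32.1 in controls, where control replicate 1 lay above knockdown replicate 3. MMP3 alone of these 5 had a lower mean TPM in the knockdown group.

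Of the remaining secreted MMPs, MMP28, or epilysin, was at 3.09, 4.80 and 4.18 TPM after knockdown and at 1.57, 2.39 and 2.82 TPM in controls. The groups did not overlap, and the log2 fold change was 0.63 (SE 0.21), or 0.48 after removal of the GC trend. MMP19 was the 1 MMP fitted with a negative log2 fold change, -0.24 (SE 0.15), and shares 814 exonic bases with TMEM198B on the opposite strand. Summed over all 15 MMPs, the level was 276, 278 and 276 TPM after knockdown and 203, 226 and 225 TPM in controls. These are means of 276.5 ± 1.47 TPM and 217.9 ± 12.6 TPM (SD, n = 3), and the groups did not overlap. The small SD after knockdown is not one of the single genes, since replicate 1 was highest for MMP7 and lowest for MMP14 and MMP15. MMP14 and MMP15, the most abundant MMPs, had log2 fold changes of 0.06 and 0.04 after removal of the GC trend. The sum was not computed with that trend removed.

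**Figure D2:**
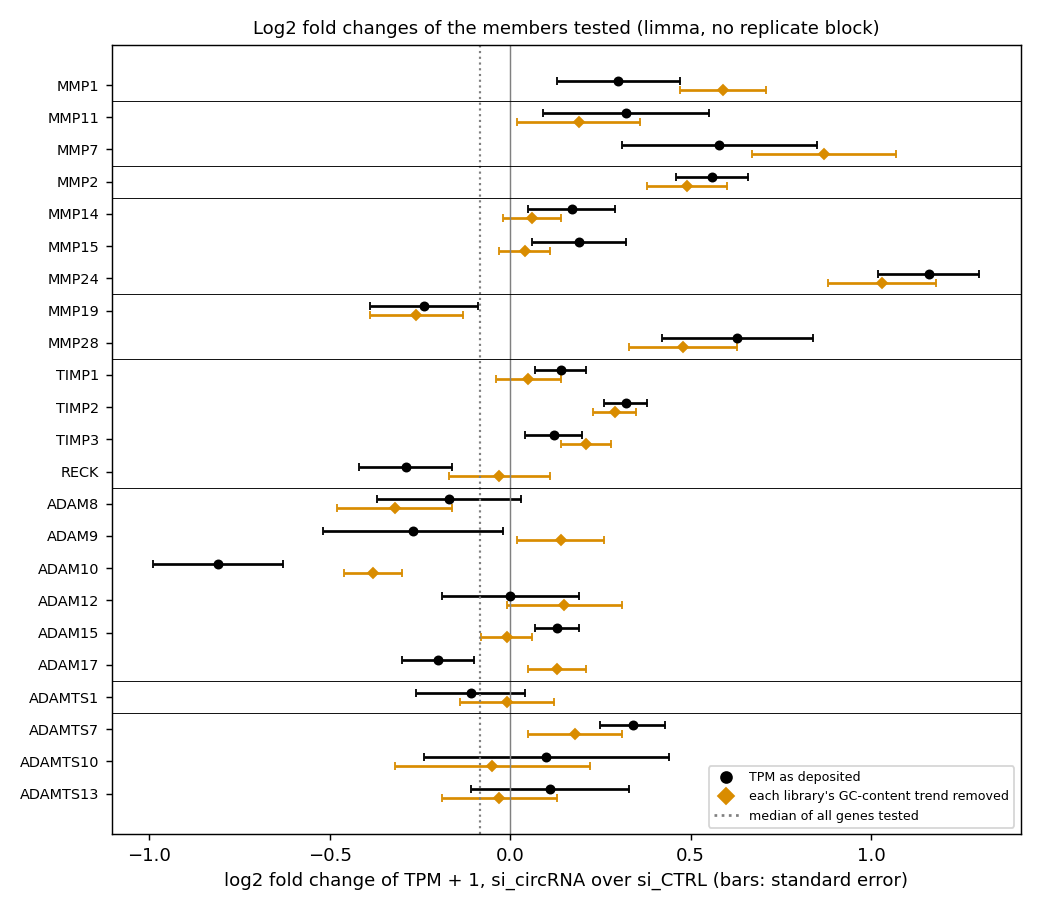
Log2 fold change of TPM + 1, knockdown over control, of the 23 members fitted by limma without a replicate block, from the TPM as deposited (black) and with the GC trend of every library taken out (orange); bars are standard errors, lines part the roles and the dotted line is the median of all genes fitted, -0.084. MMP24 (1.16) and ADAM10 (-0.81) stand at the ends, and ADAM9, ADAM15, ADAM17, ADAMTS10 and ADAMTS13 change sign between the black and orange values.

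**Figure D3:**
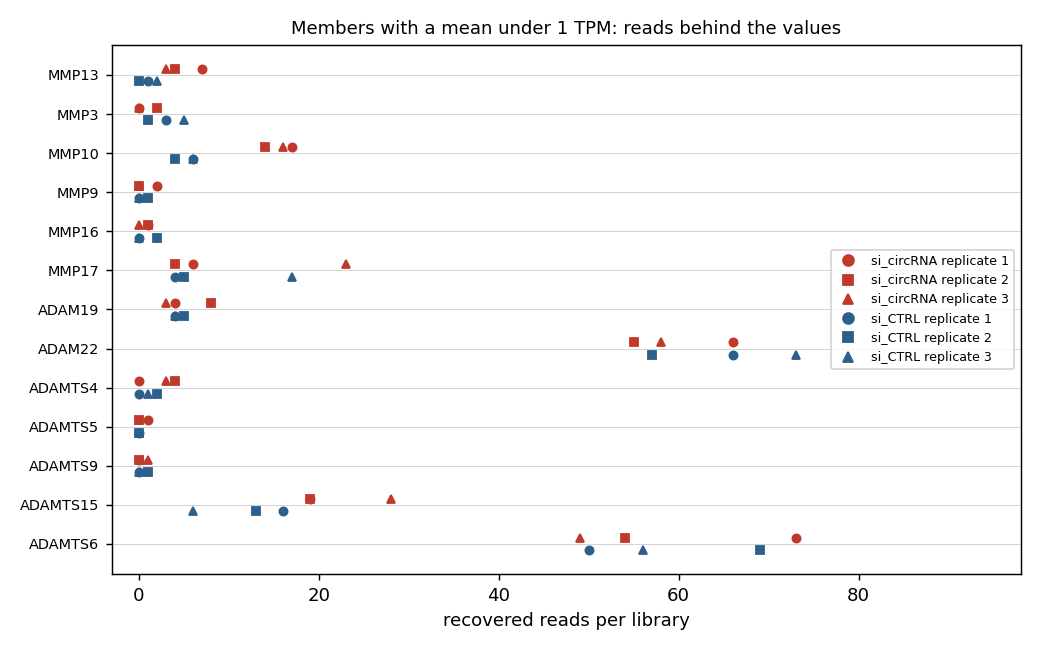
Reads recovered per library for the 13 members with a mean under 1 TPM, with knockdown in red, control in blue and a symbol for each replicate number. MMP10 (14 to 17 reads against 4 to 6) and MMP13 (3 to 7 reads against 0 to 2) do not overlap between the groups in reads or in TPM, ADAMTS15 (19 to 28 reads against 6 to 16) does not in reads but does in TPM, and ADAM22 and ADAMTS6 overlap at 49 to 73 reads.

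TIMP2, which both inhibits MMPs and helps MMP14 to activate proMMP2, was the most abundant inhibitor. It was at 271, 282 and 299 TPM after knockdown and at 219, 231 and 233 TPM in controls. The groups did not overlap, the 3 pairs differed by 0.31, 0.29 and 0.36 on the log2 scale, and the log2 fold change was 0.32 (SE 0.06), or 0.29 after removal of the GC trend. TIMP1 had means of 74.6 ± 2.80 TPM and 67.6 ± 4.11 TPM, and TIMP3, which also inhibits ADAM17, had means of 48.9 ± 1.86 TPM and 45.1 ± 2.83 TPM (SD, n = 3, knockdown first). Both overlapped between the groups. RECK, which restrains MMP14, MMP2 and MMP9, differed in the other direction, with 5.79, 5.45 and 5.12 TPM after knockdown and 5.72, 7.45 and 7.54 TPM in controls. Its log2 fold change was -0.29 (SE 0.13), but -0.03 after removal of the GC trend, and in replicate pair 1 it differed by 0.01.

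Proteases and inhibitors were set against each other as ratios within each library, since proteolysis depends on their balance. The summed MMPs were at 0.679 ± 0.0228 times the summed TIMPs after knockdown and at 0.640 ± 0.0257 times in controls (SD, n = 3), and the groups overlapped. The ratio of MMP2 to TIMP2 was 0.127, 0.102 and 0.0979 after knockdown and 0.0904, 0.0932 and 0.0866 in controls, with no overlap. The ratio of MMP14 to RECK was 15.3, 20.4 and 21.4 after knockdown and 14.2, 13.0 and 12.8 in controls, also with no overlap. Transcripts of MMP14 have 58.9% and those of RECK 44.2% G or C, and after removal of the GC trend their log2 fold changes were 0.06 and -0.03. For MMP14 to TIMP2 the groups overlapped, at 0.362 ± 0.0340 and 0.402 ± 0.0269 (SD, n = 3). These are ratios of mRNA and do not measure enzyme activity.

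ADAM10, the sheddase that cuts Notch receptors, N-cadherin and the amyloid precursor, had the lowest log2 fold change of the members fitted. Its gene lies at chr15:58588807-58749978 on the minus strand. ADAM10 was at 12.4, 8.16 and 9.38 TPM after knockdown and at 21.8, 16.1 and 16.7 TPM in controls, so that the groups did not overlap. The mean was 9.99 ± 2.21 TPM (SD, n = 3) against 18.2 ± 3.14 TPM (SD, n = 3), or 0.550 of the control level. The log2 fold change was -0.81 (SE 0.18), with pair differences of -0.76, -0.90 and -0.77. After removal of the GC trend it was -0.38 (SE 0.08), with the same sign and a smaller size.

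ADAM17, the sheddase of TNF and of EGF receptor ligands, was at 9.72, 8.40 and 8.92 TPM after knockdown and at 10.9, 9.87 and 10.6 TPM in controls. The groups did not overlap, yet the log2 fold change of -0.20 (SE 0.10) became 0.13 after removal of the GC trend. ADAM17 shares 1323 exonic bases with IAH1 on the opposite strand, which was at 4.04 to 4.65 TPM over all libraries. The ratio of ADAM10 to ADAM17 was 1.10 ± 0.160 after knockdown and 1.73 ± 0.232 in controls (SD, n = 3), with no overlap. Transcripts of both genes are AT-rich, with 38.3% and 42.3% G or C.

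ADAM15, a disintegrin-like metalloprotease that can bind integrins, was the most abundant member. It was at 504, 533 and 542 TPM after knockdown and at 490, 477 and 477 TPM in controls, which did not overlap. The log2 fold change was 0.13 (SE 0.06), and -0.01 after removal of the GC trend. ADAM9 had means of 82.2 ± 28.8 TPM and 96.7 ± 18.2 TPM (SD, n = 3, knockdown first), with replicate 1 highest in both groups, and its log2 fold change of -0.27 lay between -0.54 and -0.08 with 1 library left out. ADAM12 was near 1 TPM in both groups, with a log2 fold change of 0.00 (SE 0.19), and ADAM8 had one of -0.17 (SE 0.20), which was 0.02 without knockdown replicate 1. ADAM19 had 3 to 8 reads per library and ADAM22 had 55 to 73 reads, and both overlapped between the groups. The summed ADAM level was 630.2 ± 15.6 TPM after knockdown and 609.7 ± 29.3 TPM in controls (SD, n = 3), and the groups overlapped.

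Among the ADAMTS proteases, ADAMTS7, which cuts cartilage oligomeric matrix protein, was the most abundant. It was at 20.6, 17.3 and 19.1 TPM after knockdown and at 15.5, 14.6 and 14.4 TPM in controls, and the groups did not overlap. The log2 fold change was 0.34 (SE 0.09), or 0.18 after removal of the GC trend. ADAMTS13, the protease of von Willebrand factor, had means of 4.85 ± 1.37 TPM and 4.36 ± 0.915 TPM. ADAMTS10, which is bound to fibrillin microfibrils, had means of 3.73 ± 1.41 TPM and 3.43 ± 1.46 TPM (SD, n = 3, knockdown first). In both genes replicate 1 was the lowest library of its group by a wide margin. The proteoglycanases were little expressed: ADAMTS1 was at 1.54 to 2.09 TPM after knockdown and at 1.66 to 2.17 TPM in controls, ADAMTS15 had 6 to 28 reads per library, and ADAMTS4, ADAMTS5 and ADAMTS9 had at most 4 reads in any library. ADAMTS6 had 49 to 73 reads per library, and its groups overlapped.

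Several members differed as much between replicate numbers as between the groups. In 4 of the 23 members (MMP7, ADAM9, ADAM12 and ADAMTS1) both replicate 1 libraries lay above every library of replicates 2 and 3. In 5 members (MMP11, MMP14, MMP15, ADAMTS10 and ADAMTS13) both lay below every one of them. Members such as MMP1 and TIMP2, where replicate 1 was extreme only within each group, are not counted here. Over all genes fitted, both replicate 1 libraries lay above all others in 2790 and below all others in 2440 of 13980. On log2(TPM + 1), replicate 1 of ADAMTS10 was below the mean of replicates 2 and 3 by 0.84 in the knockdown group and by 0.89 in the controls, whereas the groups differed by 0.10, a value that ran from -0.20 without control replicate 1 to 0.38 without knockdown replicate 1. For ADAM9 it was above that mean by 0.80 and 0.43. Read within pairs of equal number, 13 of the 23 members, or 56.5%, were higher after knockdown in all 3 pairs, as were 22.0% of all genes, and 5 members, or 21.7%, were lower in all 3, as were 43.7% of all genes.

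**Figure D4:**
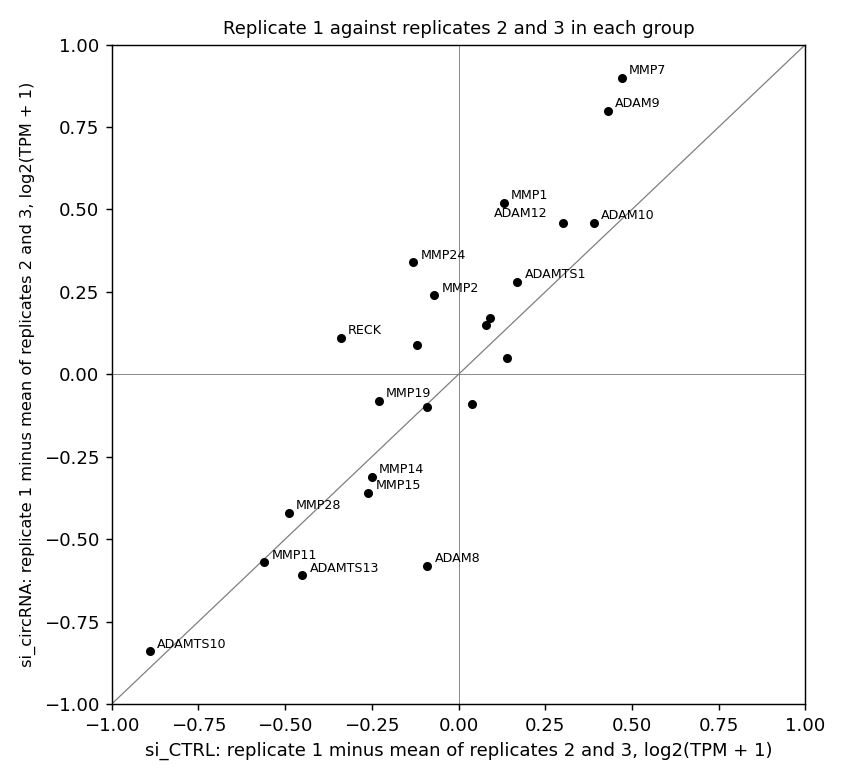
Replicate 1 minus the mean of replicates 2 and 3, on log2(TPM + 1), in controls (horizontal axis) and after knockdown (vertical axis) for the 23 members, with the line of equal values. ADAMTS10 (-0.89 and -0.84) and MMP11 (-0.56 and -0.57) lie at the lower left and MMP7 (0.47 and 0.90) and ADAM9 (0.43 and 0.80) at the upper right, while MMP24 (-0.13 and 0.34) does not follow the line.

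The base composition of the transcripts moved with the fold changes. Over 12970 genes with a GENCODE transcript, the log2 fold change and the percentage of G or C had a Spearman correlation of 0.647, a description over genes that share the same 6 libraries. The median log2 fold change went from -0.422 in 1827 genes under 40% to 0.116 in 2200 genes of 60% or more. Of the 14 members at 50% or more, 12 had a positive log2 fold change, as had 61.6% of all such genes. Of the 9 members under 50%, 4 had a positive value (MMP1, MMP7, TIMP3 and ADAM12), as had 929 of all 6651 such genes. MMP7 (43.3% G or C, log2 fold change 0.58) and MMP1 (43.4%, 0.30) thus lay above most transcripts of their composition, and ADAM10 (38.3%, -0.81) lay below the median of its class.

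With each library's GC trend removed and the replicate block in the fit, 7 members were called higher, beside 11.6% of 12970 genes, and 1 was called lower, ADAM10, beside 13.4%. The 7 were MMP1, MMP2, MMP7, MMP24, MMP28, TIMP2 and TIMP3, of which 5 were also among the 9 called with the block alone. MMP11, MMP14, MMP15 and ADAMTS7, all with more than 58% G or C, were not called in this fit. Without the block, 0 members were called after removal of the GC trend by limma, where 2735 genes of the table had an unadjusted p under 0.05 and limma-voom without the offset called 3 members.

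miR-345-5p is the miRNA that was examined with cDCBLD2 in these cells, and so the members were searched for its seed match. Its mature sequence, with the seed of bases 2 to 8 in capitals, and the matches in the coding sequences of the abundant members MMP14 and ADAM15, with the 7 matching bases in capitals, are as follows.
hsa-miR-345-5p: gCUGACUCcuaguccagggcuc
MMP14: tttatgggggtGAGTCAGggttccccacca
ADAM15: agcagcaggcaGAGTCAGagaaggccccga

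The match of MMP14 begins at base 22843715 of chromosome 14 and that of ADAM15 at base 155052694 of chromosome 1, both on the plus strand of GRCh38. A match anywhere in the transcript used was found in 5 of the 23 members fitted, MMP14, ADAM8, ADAM9, ADAM15 and ADAMTS13, or 21.7%, beside 23.3% of 12688 genes. Their log2 fold changes were 0.17, -0.17, -0.27, 0.13 and 0.11 in this order, so that both directions occur. The value of ADAMTS13 ran from -0.04 without control replicate 1 to 0.31 without knockdown replicate 1. MMP24, MMP2 and ADAM10 held no match in the transcripts used. A match of letters does not show binding.

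Genes of the same pathway outside the set were read from 3 lists: 32 other family members, 24 activators and regulators and 33 cleaved substrates. Of these 89 genes, 53 were fitted. Limma without the block called 0 of them in either direction, where 11 had an unadjusted p under 0.05 in the higher direction and 3 in the lower, beside 6.78% and 19.4% of all genes. Limma-voom on the reads called 6 higher and 0 lower, beside 1.29% and 1.72% of all genes. With the replicate block, 16 of the 53 (30.2%) rose and 4 (7.55%) fell, beside 9.94% and 25.0% of all genes. The other family members were mostly silent: 28 of 32 were under the minimum and 8 were at 0 in all libraries. TIMP4, ADAMTS12, ADAMTS16 and ADAMTS20 were fitted, and ADAMTS20 was at 0.713 ± 0.121 TPM after knockdown and 1.49 ± 0.253 TPM in controls (SD, n = 3). Its log2 fold change was -0.54 (SE 0.13, limma adjusted p = 0.0309 with the block and 0.0974 without). After removal of the GC trend it was -0.24 and was not called with the block (limma adjusted p = 0.21). ADAMTS20 passed the minimum of 1 TPM only through the control group, where it is high.

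Among activators and regulators, 9 of 22 fitted (40.9%) rose with the replicate block and 0 fell, beside 9.94% and 25.0% of all genes. The 9 included the MMP proconvertase FURIN, the urokinase receptor PLAUR and the scavenger receptor LRP1, which clears MMPs and TIMPs. FRMD8, which steadies the ADAM17 and iRhom complex at the cell surface, and 4 tetraspanins, TSPAN10, TSPAN14, TSPAN15 and TSPAN33, were also among them. With the GC offset and the block, FRMD8 (limma adjusted p = 0.0904) and PLAUR (0.06) were not called. Except for TSPAN10, which was scarce, those named were at 12 TPM or more in controls. LRP1 was at 114, 159 and 227 TPM after knockdown and at 74.6, 109 and 128 TPM in controls, and its log2 fold change was 0.66 (SE 0.06, limma adjusted p = 0.00471 with the block and 0.209 without). TSPAN10 was at 3.20, 4.03 and 4.07 TPM after knockdown and at 2.47, 2.19 and 2.48 TPM in controls, and its log2 fold change was 0.49 (SE 0.12, limma adjusted p = 0.0312 with the block and 0.0935 without). TSPAN10, TSPAN14, TSPAN15 and TSPAN33 belong to the TspanC8 group, which carries ADAM10 to the cell surface, so that partners of ADAM10 rose in the fit in which its own mRNA was called lower. TSPAN5 and TSPAN17, the remaining members of that group, had log2 fold changes of 0.13 (limma adjusted p = 0.228 with the block) and 0.14 (0.0644) and were not called. Which of the 6 were called depended on the fit: with the GC offset and the block TSPAN5 was called (limma adjusted p = 0.033) and TSPAN10 was not (0.0611), and limma-voom with the block called all 6. TSPAN15 was at 32.0, 32.3 and 31.9 TPM after knockdown and at 25.7, 26.2 and 26.2 TPM in controls.

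Among cleaved substrates, 7 of 27 fitted (25.9%) rose with the replicate block and 3 (11.1%) fell, beside 9.94% and 25.0% of all genes. The neural adhesion molecule L1CAM rose from 12.0 ± 2.11 TPM to 20.1 ± 2.71 TPM (SD, n = 3), by a log2 fold change of 0.70 (SE 0.07, limma adjusted p = 0.00457 with the block and 0.0706 without). AXL, a receptor tyrosine kinase shed by ADAM10 and ADAM17, rose from 49.3 ± 1.43 TPM to 69.1 ± 5.12 TPM, by 0.48 (SE 0.05, limma adjusted p = 0.00541 with the block and 0.0526 without). SDC4, CX3CL1, THBS1 and FN1 also rose.

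MET, the receptor of hepatocyte growth factor and also a shed substrate, fell with the block. It was at 1399, 942 and 1082 TPM after knockdown and at 1884, 1578 and 1725 TPM in controls, so that the groups did not overlap. Its log2 fold change was -0.62 (SE 0.07, limma adjusted p = 0.00540 with the block and 0.0856 without), and -0.30 after removal of the GC trend. The adhesion molecule ALCAM fell by 0.42 on the log2 scale with the block (limma adjusted p = 0.0183, and 0.247 without) but was at -0.02 after removal of the GC trend. The heparan sulphate proteoglycan SDC1 fell from 125 ± 3.71 TPM to 103 ± 9.24 TPM (SD, n = 3), by 0.27 on the log2 scale (limma adjusted p = 0.0308 with the block and 0.113 without), and was at -0.39 after removal of the GC trend.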

How the data were processed

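PolyA-Seq of HCCLM3-SR cells gave 6 libraries, 3 for each siRNA, grouped by their titles. The authors deposited TPM values per gene, scaled to one total per library. The submitters' processing notes name fastp 0.20.1, HISAT2 2.1.0, StringTie 2.0 and hg38; the annotation and the counting and strand settings are not given in the sources used here. Since the deposited values are not counts, DESeq2 was not used. Limma 3.58.1 in R 4.3.3 was fitted to log2(TPM + 1), with a trend of variance on mean, over genes averaging at least 1 TPM, with Benjamini-Hochberg adjustment over all of them. Adjusted p-values and calls are from this fit unless another is named.

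Reads were recovered from the ratios of TPM values between libraries with numpy 2.4.6 and numba 0.67.0. Of the 17285 genes above 0 in all 6 libraries, 100% came out as whole reads within 0.01, against 0.121% with library factors moved at random by up to 10%. The totals are lower bounds and limit precision by counting error only. Limma-voom was run on genes with at least 10 reads in 3 libraries. Transcript GC content came from GENCODE 29 and was found for 92.8% of the genes tested and for every member; the trend was removed by loess with a span of 0.5. Promoters and the miRNA came from RefSeq.

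The replicate numbers come from the titles. Deviations from the group means of same-numbered libraries correlated at 0.560, 0.343 and 0.362 for numbers 1, 2 and 3, so the numbers were taken to pair the libraries, and a fit with the number as a block is given where it changes a call described in the text.

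The members and lists were chosen with earlier results of these data known. Values per library, or their range, are given for members called with or without the block and for the highest member of each role, and for some others chosen after their values were seen. Of the genes outside the set, up to 5 higher and 5 lower by size were named among those called, with other called genes by name only, and results for some of them are not reported here; TSPAN5, TSPAN15, TSPAN17 and MMP24OS were chosen after their values were seen. Alternatives were another scaling, no filter on low values, a pseudocount of 0.1, the block, the GC offset, both together, voom and leaving out each library. The fits were also run on simulated data without a GC trend and with changes larger than those of the members, which does not test them for the values given here. Python 3.11.15, pandas 2.3.3 and matplotlib 3.10.9 were used.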

Additional observations from a re-analysis of the deposited data

How the results depend on the processing

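The reported fit without a replicate block called 35 genes higher and 88 lower, 1 member higher and 0 lower, and 0 related genes in either direction, with a member median of 0.13. With the replicate block these were 1390 and 3501 genes, 9 and 1 members, and 16 and 4 related genes. The GC offset gave 3 and 2 genes and 0 members higher, and the GC offset with the replicate block gave 1507 and 1735 genes, 7 and 1 members, and 17 and 2 related genes. Voom on reads gave 193 and 259 genes, 3 members higher, a median of 0.24 and 6 related genes higher. Voom with the replicate block gave 2627 and 3081 genes, 14 members (of 27 fitted, with MMP10 included, which passed the read minimum only through the knockdown group) and 1 member, a median of 0.24, and 25 and 3 related genes. Without a filter there were 3 and 1 genes and 0 members higher, over 25278 genes. Upper-quartile scaling gave 59 genes and 2 members higher, a median of 0.20 and 2 related genes higher, and 48.8% of the genes it called were higher, against 28.5%. The pseudocount of 0.1 moved none of these counts by over 1.5 times. Leaving out 1 library gave 0 to 649 genes higher and 0 to 2771 lower, 0 to 4 members higher and 0 to 1 lower, medians of 0.10 to 0.20, and 0 to 11 related genes higher and 0 to 4 lower. The highest counts came without knockdown replicate 1, and the other 5 fits called no gene. The cause was not tested. Of the members called higher by voom with the replicate block, MMP1, MMP10, TIMP1, TIMP3 and ADAM15 were not among the 9 called with the block on TPM.

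Of 322 member values under 14 alternatives, 285 lay within 1 SD of the reported log2 fold change and 37 moved further, and 16 of the 23 members kept 1 sign throughout. Many of these values could not move further. With 3 libraries a group, leaving 1 out shifts a value by less than 1 SD. The block on TPM leaves the log2 fold change as it was, and with the GC offset it repeats the values of the offset alone. The count of 285 is thus not a measure of stability. With 3 libraries a group, the precision of each value is limited, and the groups of MMP14 and TIMP1 overlap. Members under 1 TPM rest on at most 73 reads per library, so that only large differences could be seen. Antisense overlaps, unknown strand handling and the GC trend limit single values.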
